A study of Rattus norvegicus with 4 samples.

Results

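The genes described here are 52 rat genes for ribosome biogenesis and RNA polymerase I, taken from a list of names and sorted by the known role of their products. Of these, 29 had at least 1 array probe whose RefSeq accession carries the gene's name, and all 29 were well above background on all 4 arrays, so none was lost to a filter on dim probes. The other 23 had no probe named in this way and have no value here: Polr1e, Ubtf, Rrn3 and Tcof1 of polymerase I transcription, Nhp2 and Nop10 of the box H/ACA particles, 11 small subunit factors (Heatr1, Utp20, Wdr43, Wdr75, Mphosph10, Imp3, Rrp9, Rcl1, Nop14, Rrp12 and Ddx10) and 6 large subunit factors (Nop2, Gnl3l, Rrp1b, Mrto4, Wdr74 and Las1l). RNA came from PC12, a rat pheochromocytoma line obtained from ATCC that is known to lack a functional MAX protein. One group of 2 arrays held RNA of PC12 cells nucleofected with an empty vector, and the other group of 2 held RNA of PC12 cells nucleofected with a plasmid that codes for MAX. Both lines had been put under drug selection, written E418 in the labels. Each group is 1 transfected line taken at passages 8 and 13, and which replicate came from which passage is not given in the sources used here. The p-values below therefore rest on how 2 arrays of 1 line varied and say nothing of how separate transfections vary. In the MAX vector group the 2 arrays also lay on different slides, so their spread mixes passage with slide.

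Ribosomes are built in the nucleolus. RNA polymerase I transcribes the precursor of the large ribosomal RNAs, small nucleolar ribonucleoprotein particles modify it, and assembly factors fold it, cut it and load it with ribosomal proteins to give the small and the large subunit. MYC proteins, which bind DNA as dimers with MAX at E-boxes, are known activators of many of these genes, and high expression of the set is a common companion of cell growth. The comparison of MAX vector with empty vector cells addresses how their expression stood in cells given the missing partner.

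The canonical E-box, CACGTG, is the site that MYC-MAX dimers prefer, so the promoters were read for these letters, which are the same on both strands. RefSeq promoters of assembly GRCr8, running from 250 bases before to 50 bases after the gene start, were given for 49 of the 52 genes (Wdr43, Bop1 and Rrs1 had no entry). CACGTG stood in 13 of the 49 (26.5%), against 1826 of all 27457 promoters of this length (6.65%) and 473 of the 5149 promoters of tested genes with a symbol (9.19%). When the 250 upstream bases alone were read, 8 of 49 held it (16.3%), against 5.79% of all promoters and 8.23% of those of tested genes with a symbol. Other genes of ribosome production, from a list of 125, had shares no lower than the 49: 32 of 107 (29.9%) over the 300 bases and 17.8% upstream. The median GC content was 58% in the 49 promoters, 60% in those of tested genes and 52.3% in all. The 13 genes were Mybbp1a (with 2 matches), Fbl, Dkc1, 6 small subunit factors (Utp20, Utp4, Wdr75, Rcl1, Bysl and Rrp12) and 4 large subunit factors (Nop2, Pes1, Gnl3 and Ddx18). None of the 3 measured polymerase I subunit genes, Polr1a, Polr1b and Polr1c, held it in this window, nor did Ncl, Npm1 or Nolc1. A match is a stretch of letters and not a measured binding site. The 6 measured genes with a match in the upstream 250 bases are shown, since their expression could be set beside the sequence. Each line gives 60 bases on the gene's own strand from 5′ to 3′, with the E-box in capitals.
Mybbp1a: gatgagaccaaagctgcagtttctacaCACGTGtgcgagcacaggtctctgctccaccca
Dkc1: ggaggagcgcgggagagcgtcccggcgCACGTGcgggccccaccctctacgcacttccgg
Utp4: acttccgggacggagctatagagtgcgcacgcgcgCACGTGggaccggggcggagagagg
Pes1: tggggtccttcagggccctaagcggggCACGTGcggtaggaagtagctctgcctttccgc
Gnl3: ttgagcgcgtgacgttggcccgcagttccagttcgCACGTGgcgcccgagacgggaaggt
Ddx18: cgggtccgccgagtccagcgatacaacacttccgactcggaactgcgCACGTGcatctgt
In GRCr8 these stretches lie upstream of the start of Mybbp1a at chr10:57555275-57555334, of Dkc1 at chrX:157751440-157751499, of Utp4 at chr19:51702181-51702240 and of Pes1 at chr14:83074269-83074328, all on the plus strand. Those of Gnl3 at chr16:6219783-6219842 and Ddx18 at chr13:35295973-35296032 are on the minus strand. Of the 6 E-boxes printed, that of Ddx18 was nearest to the start, with its first base at -13, and that of Dkc1 was farthest, at -184. It began at -25 in both Utp4 and Gnl3, at -50 in Pes1 and at -156 in Mybbp1a. The other match of Mybbp1a, not printed, began at -1 and so runs across the start.

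Of 41012 probes, 64.4% to 71.53% passed the scanner software's background test on an array, and 0 spots were saturated. The lowest of these shares was that of MAX vector replicate 1, which was the only array on its slide, while the other 3 arrays shared a slide. Precision is limited by the 2 arrays in each group. The probe named for Max was not well above background on any array, so it checks neither label. Chromaffin or sympathoadrenal markers, those of the labelled cell type, had probes for 11 of 12 genes, and 7 were well above background on all arrays. Dbh, Slc18a1, Scg2 and Ret were not. Chga and Chgb were dim, at log2 values of -4.4 to -3.3 relative to the array's 75th percentile. The summed signal of the 11, relative to each array's 75th percentile, ran from 19.2 to 19.3 in empty vector and from 10.61 to 10.74 in MAX vector arrays. Most of that sum was Ddc, which encodes the decarboxylase that makes dopamine and which fell by 1.08 ± 0.08 on the log2 scale (limma adjusted p = 0.0391). Th, which encodes tyrosine hydroxylase, the rate-limiting enzyme of catecholamine synthesis, rose by 2.15 ± 0.11 (limma adjusted p = 0.0203). The sum therefore does not give the direction of every marker. Besides Th, only Chgb lay above 0, at 0.17 ± 0.29. The others lay below, among them Phox2a at -0.74 ± 0.10 (limma adjusted p = 0.0864) and Ret at -0.87 ± 0.14 (limma adjusted p = 0.113). The 4 of 6 fibroblast markers with a probe summed to 127.5 and 141 on the empty vector arrays. With the MAX vector they summed to 135.2 and 144.5, most of it Col3a1, whose log2 fold change was 0.07 ± 0.10. This sum too does not give the direction of every marker. Dcn lay at 0.75 ± 0.13 (limma adjusted p = 0.126), Lum at -1.19 ± 0.27 (limma adjusted p = 0.184) and Col1a2 at -0.16 ± 0.09. Adrenal cortex markers (5 of 6 with a probe) summed to 0.22 on both arrays of the empty vector, and to 0.22 and 0.35 with the MAX vector. Leukocyte markers (3 of 5) summed to 0.62 and 0.70 against 0.66 and 1.14, and Schwann cell markers (5 of 5) to 0.56 and 0.63 against 0.50 and 0.63. Cyp11b1, Itgam and S100b were not well above background on any array. The part of any of these signals in the values below was not tested.

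None of the 29 genes passed the test between MAX vector and empty vector cells, and their expression differed little. The log2 fold changes (MAX vector over empty vector) had a median of 0.023 with quartiles at -0.026 and 0.093, and ran from -0.22 for Dkc1 to 0.44 for Polr1a. Over all 25356 genes tested the median was -0.019 with quartiles at -0.19 and 0.13. Of the 29, 20 lay above 0 and 9 below, where 11783 of all 25356 genes lay above 0. At a limma adjusted p under 0.05 the count was 0 of 29, where 0.84% of all genes passed (146 higher and 67 lower, 0.576% and 0.264%). At an unadjusted limma p under 0.05 the count was 1 of 29 higher, Polr1a, and 0 lower, where 16.1% of all genes passed, 7.93% higher and 8.21% lower. Both MAX vector arrays lay above both empty vector arrays for 8 genes (27.6%) and below both for 4 (13.8%), where all genes gave 24.2% and 26%, and the groups overlapped for the other 17. In either direction that makes 12 genes (41.4%), against 50.2% of all genes, and the share above was near that of all genes.

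The confidence limits give the size of change that the fit to these 4 arrays left room for. They take no account of the slide that MAX vector replicate 1 had to itself. For each of the 29 genes the 95% limits of the fold change, taken gene by gene from limma's moderated test and not adjusted, lay inside a 2-fold change in either direction, and 82.5% of all genes had limits that narrow. Limits inside 1.5-fold were had by 26 of the 29, against 57.6% of all genes. The exceptions were Polr1a, Rrs1 and Dkc1. This count was less stable over the alternative settings than that inside 2-fold. It was 21 with median scaling and 28 with normexp, and was lowest when an empty vector array was left out. The median SE of the 29 log2 fold changes was 0.098, against 0.12 over all genes, and all 29 were well above background on every array, as were 22822 of the 25356 genes. Without empty vector replicate 1, the upper limit of Rrs1 reached 1.02 on the log2 scale, past 2-fold. With each of the other 15 alternatives all 29 stayed inside 2-fold.

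**Figure D1:**
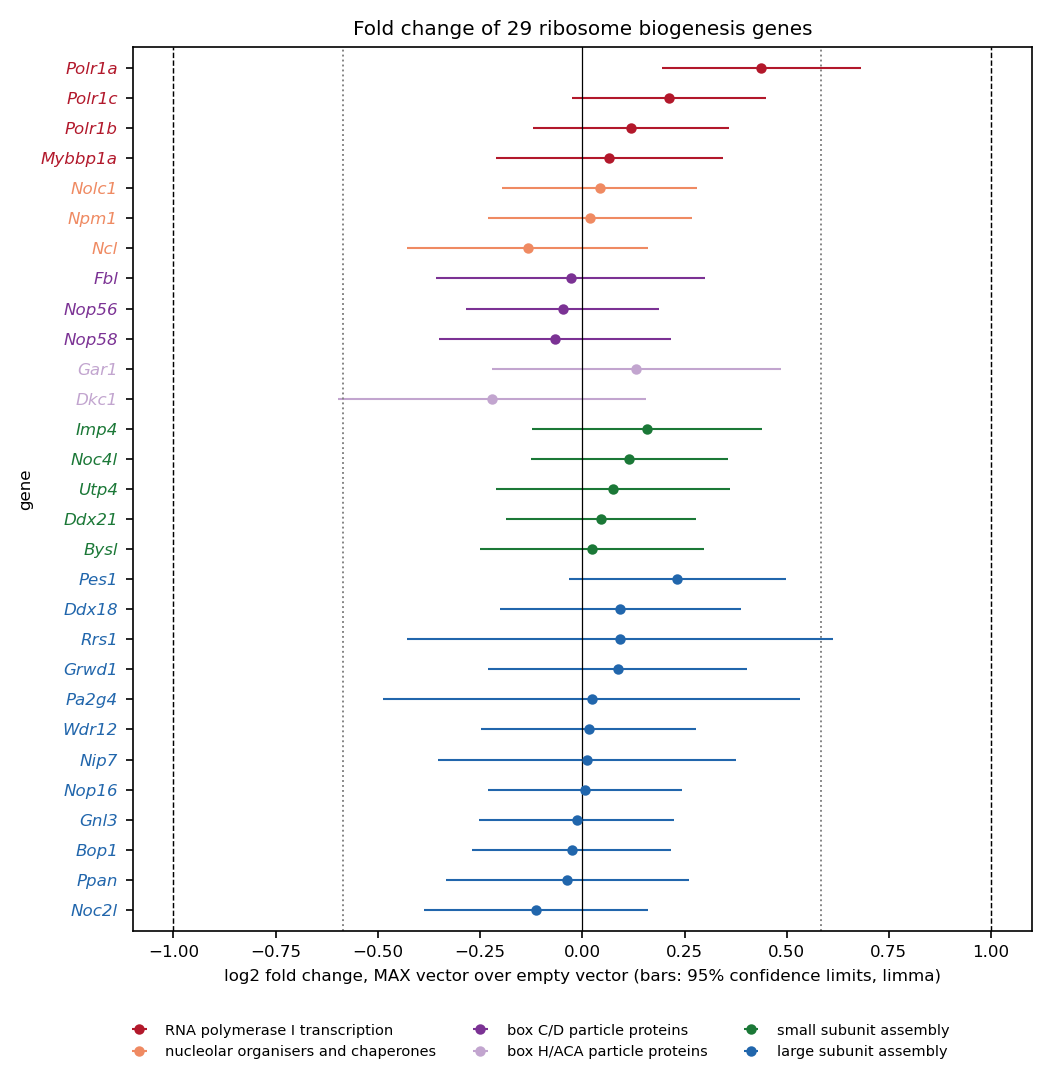
Log2 fold change of each of the 29 measured genes (points) with 95% confidence limits from limma (bars), grouped and coloured by role; dashed lines mark a 2-fold and dotted lines a 1.5-fold change. All bars lie between the dashed lines, that of Polr1a (0.19 to 0.68) is the only one that does not cross 0, and the bars of Polr1a, Rrs1 and Dkc1 cross a dotted line.

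The 4 measured genes of RNA polymerase I transcription all had log2 fold changes above 0, with a median of 0.17, but none passed the adjusted test. Signals here are log2 values relative to the array's 75th percentile, which compare arrays for 1 gene and not genes with each other. Polr1a, which encodes the largest catalytic subunit of the enzyme, measured -0.65 and -0.60 on the empty vector arrays against -0.16 and -0.21 with the MAX vector. The MAX vector arrays both stood above the empty vector arrays, and the gap between the groups was wider than that between arrays of either group. Its log2 fold change was 0.44 ± 0.09 (SE; 95% limits 0.19 to 0.68), a 1.35-fold difference, with a limma p of 0.00764 and an adjusted p of 0.153. It ran from 0.41 to 0.46 over 16 alternative settings, and its lowest adjusted p among them was 0.056. Without empty vector replicate 1, its unadjusted limma p was 0.056 in place of 0.00764.

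Polr1b, the second-largest catalytic subunit, measured 0.063 and 0.12 on the empty vector arrays against 0.21 and 0.20 with the MAX vector. The groups did not overlap, but the difference of 0.12 ± 0.09 had 95% limits of -0.12 to 0.36 and a limma adjusted p of 0.556. Polr1c, a subunit that polymerase I shares with polymerase III, measured 4.83 and 4.81 in empty vector and 5.05 and 5.01 in MAX vector arrays. It too was higher in both MAX vector arrays, by 0.21 ± 0.09 on the log2 scale (95% limits -0.03 to 0.45, limma adjusted p = 0.347). A second, dimmer Polr1c probe gave 0.13 ± 0.10. Mybbp1a, a nucleolar MYB-binding protein tied to ribosomal RNA synthesis, measured 2.60 and 2.54 against 2.71 and 2.57. Its groups overlapped, MAX vector replicate 2 falling between the empty vector arrays, and the difference was 0.066 ± 0.099 (95% limits -0.21 to 0.34, limma adjusted p = 0.775). Of these 4 genes, MAX vector replicate 1 was above the empty vector mean for 4 and MAX vector replicate 2 for 3.

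**Figure D2:**
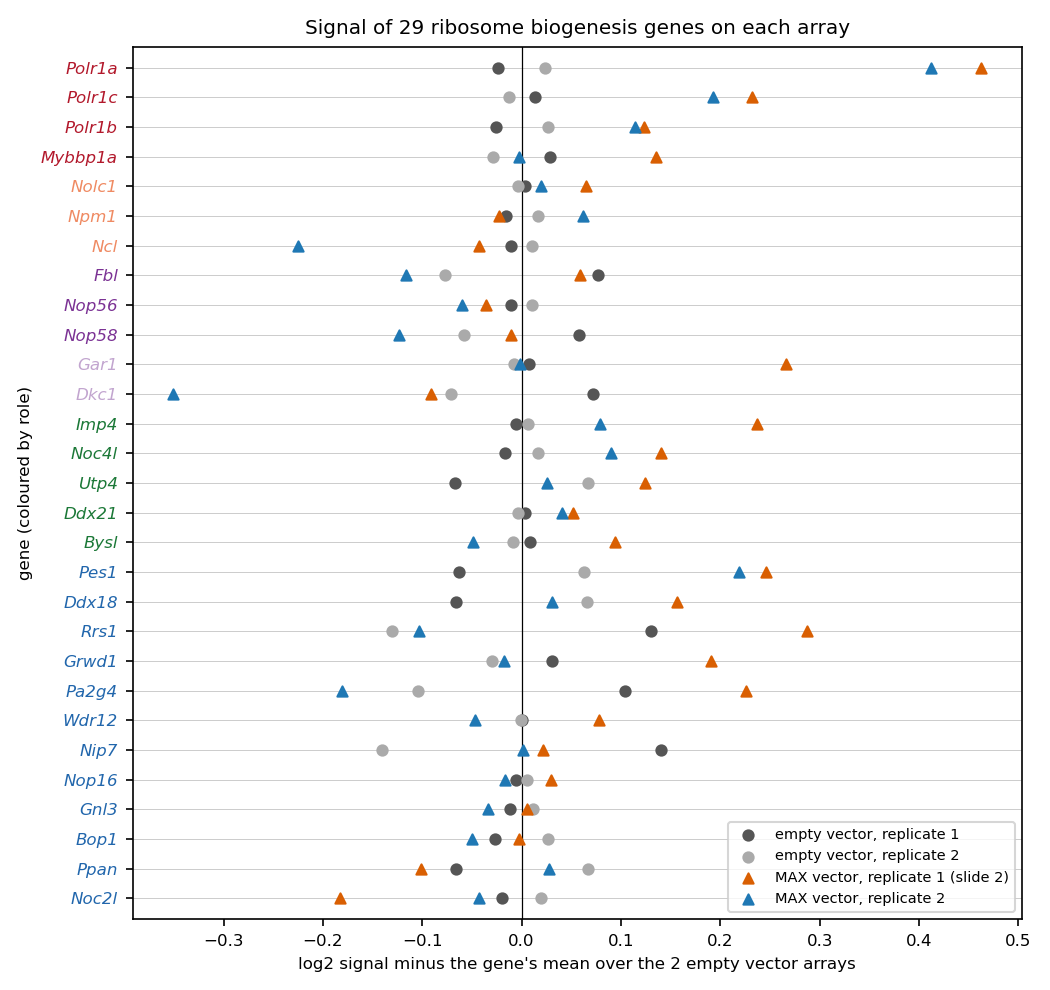
Log2 signal of the 29 genes on each array minus the gene's mean over both empty vector arrays (circles: empty vector, triangles: MAX vector, orange for the MAX vector array alone on its slide); gene names are coloured by role as in the plot of fold changes. Polr1a, at the top, shows both MAX vector arrays far to the right of the empty vector arrays, and for 18 of 29 genes the orange triangle is the highest of the 4 points.

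The abundant nucleolar proteins differed by small amounts. Ncl encodes nucleolin, which binds pre-ribosomal RNA and nucleolar chromatin, and it measured 5.67 and 5.69 on the empty vector arrays against 5.64 and 5.46 with the MAX vector. Both MAX vector arrays were the lower ones, replicate 2 by the wider margin, and the difference was -0.13 ± 0.11 (95% limits -0.43 to 0.16, limma adjusted p = 0.588). Npm1 encodes nucleophosmin, a histone and ribosome chaperone of the outer nucleolus, and it measured 7.30 and 7.34 against 7.30 and 7.38. Its groups overlapped and its difference was 0.020 ± 0.089 (95% limits -0.23 to 0.27, limma adjusted p = 0.934). Nolc1 encodes a phosphoprotein that shuttles between nucleolus and Cajal bodies and binds small nucleolar particles, and it measured 4.44 and 4.43 against 4.50 and 4.45. The MAX vector arrays were higher by a margin within the SE, 0.042 ± 0.085 (95% limits -0.20 to 0.28, limma adjusted p = 0.836).

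The 3 listed core proteins of the box C/D particles, which guide methylation of ribosomal RNA, all had values just below 0. Fbl encodes fibrillarin, the methyltransferase of these particles, and it measured 7.24 and 7.09 in empty vector and 7.22 and 7.05 in MAX vector arrays. The spread within each group was wider than the gap between the groups, and the difference was -0.029 ± 0.118 (95% limits -0.36 to 0.30, limma adjusted p = 0.925). Nop58 measured 3.77 and 3.65 against 3.70 and 3.59, with overlap and a difference of -0.067 ± 0.102 (95% limits -0.35 to 0.22). Nop56, its partner protein in the particle, gave -0.048 ± 0.084 with both MAX vector arrays below both empty vector arrays.

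The 2 measured proteins of the box H/ACA particles, which guide pseudouridylation, pointed in opposite directions. Dkc1 encodes dyskerin, the pseudouridine synthase that also belongs to telomerase, and it measured 3.16 and 3.01 in empty vector and 2.99 and 2.73 in MAX vector arrays. Lower values came from both MAX vector arrays, replicate 2 by far the most, and the difference of -0.22 ± 0.13 (95% limits -0.60 to 0.15) had a limma p of 0.177 and an adjusted p of 0.498. Gar1, a small structural protein of the same particle, measured 0.45 and 0.43 against 0.71 and 0.44. MAX vector replicate 1 alone stood out, and MAX vector replicate 2 lay between the empty vector arrays. Its difference was 0.13 ± 0.13 (95% limits -0.22 to 0.49, limma adjusted p = 0.652).

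All 5 measured small subunit factors had positive values on the probe used, and none passed the test. The dimmer Ddx21 probes gave -0.16 ± 0.12 and 0.061 ± 0.123. Under some other settings Ddx21 and Bysl fell below 0, to -0.098 and -0.049 at the lowest. Imp4, a component of the U3 particle that releases small subunit RNA from the precursor, measured 1.81 and 1.83 in empty vector and 2.06 and 1.90 in MAX vector arrays. Both MAX vector arrays were higher, and the difference was 0.16 ± 0.10 (95% limits -0.12 to 0.44, limma adjusted p = 0.512). Noc4l, a nucleolar complex protein of the small subunit, gave 0.12 ± 0.09, and the helicase gene Ddx21 gave 0.046 ± 0.084, both without overlap. Utp4, of the early U3-bound processome, gave 0.075 ± 0.102 with overlap. Bysl, which encodes bystin, a factor of late small subunit maturation, had the lowest value of the 5, with arrays at 1.91 and 1.89 against 1.99 and 1.85. One MAX vector array was the highest of the 4 and the other the lowest, and the difference was 0.023 ± 0.098 (95% limits -0.25 to 0.30, limma adjusted p = 0.929).

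The 12 measured large subunit factors had a median log2 fold change of 0.013, 8 above 0 and 4 below. Pes1 encodes pescadillo, which forms the PeBoW complex with the products of Bop1 and Wdr12, and it measured 4.41 and 4.54 in empty vector and 4.72 and 4.69 in MAX vector arrays. Both MAX vector arrays were higher, and the difference was 0.23 ± 0.10 (95% limits -0.03 to 0.50) with a limma p of 0.0721 and an adjusted p of 0.355. The other PeBoW genes had smaller values: Bop1 gave -0.026 ± 0.087 and Wdr12 gave 0.015 ± 0.095, both with overlapping arrays. Noc2l, a nucleolar complex protein and histone acetyltransferase inhibitor, had the lowest value of the class, with arrays at 1.04 and 1.07 against 0.87 and 1.01. The lower values were again those of the MAX vector, this time replicate 1 by the wider margin, and the difference was -0.11 ± 0.10 (95% limits -0.39 to 0.16, limma adjusted p = 0.621).

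The arrays of the other 8 large subunit factors overlapped between the groups. The least precise values were those of Rrs1, a regulator of ribosome synthesis, at 0.092 ± 0.187, and Pa2g4, an ERBB3-binding and pre-ribosomal protein, at 0.023 ± 0.183. In both genes the replicates of each group lay far apart, for Pa2g4 at 1.12 and 0.91 in empty vector and 1.24 and 0.83 in MAX vector arrays. The helicase gene Ddx18 gave 0.093 ± 0.106 and the histone-binding factor Grwd1 gave 0.086 ± 0.114. Values nearest to 0 were those of Nop16 at 0.0066 ± 0.0851, Nip7 at 0.011 ± 0.130 and Gnl3, which encodes the nucleolar GTPase nucleostemin, at -0.014 ± 0.085. Ppan, of the Brix-domain family, gave -0.037 ± 0.106.

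Several probes were present for 5 genes, and the values above are those of the brightest one. The dimmer probes of Npm1 gave 0.15 ± 0.13 and 0.064 ± 0.113, so all its probes were above 0. The other Nop56 probe gave -0.098 ± 0.093, of the same sign as the first. Signs differed among the probes of Nolc1, whose others gave -0.038 ± 0.111 and -0.11 ± 0.09, and of Ddx21, whose others gave -0.16 ± 0.12 and 0.061 ± 0.123. No direction holds across the probes of these 2 genes.

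The direction of the small differences followed 1 array, as it did in the other genes of ribosome production described below. On MAX vector replicate 1, the array alone on its slide, 25 of the 29 genes were above their own mean over the 4 arrays and 18 had their highest value, where 45.9% and 25.3% of all genes did. On MAX vector replicate 2, 10 of the 29 were above their mean, 1 was highest and 11 were lowest. Between single arrays, the median difference of the 29 genes was 0.077 and 0.090 for MAX vector replicate 1 minus each empty vector array. It was -0.023 and -0.022 for MAX vector replicate 2 minus each of them, and -0.011 between the empty vector arrays. The 2 MAX vector arrays themselves differed by 0.051, with 26 of 29 genes higher on replicate 1, while the median of all genes there was -0.012. Without MAX vector replicate 1, 13 of 29 genes were above 0 in place of 20, and the median was -0.0027; without MAX vector replicate 2 it was 0.078. The value of Polr1a was 0.41 without the first and 0.46 without the second. The share of probes above background moved with this array, and its part and that of the slide in these differences were not tested.

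**Figure D3:**
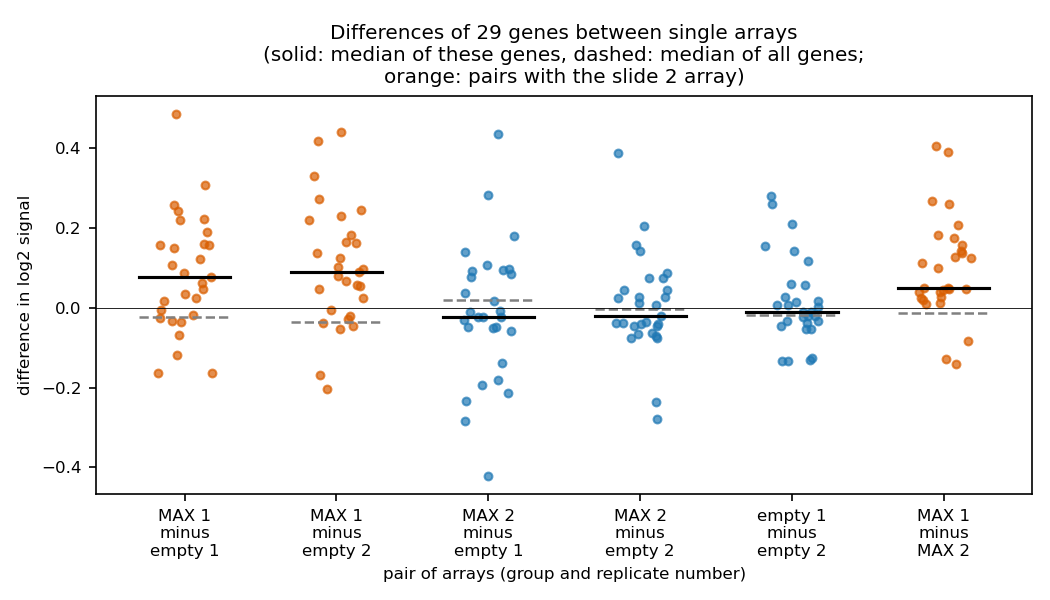
Difference in log2 signal of the 29 genes (points) between each pair of single arrays; solid bars are medians of the 29, dashed bars medians of all genes, and orange marks pairs with MAX vector replicate 1, the array on the second slide. Medians of the 29 are 0.051 to 0.090 in the orange pairs and -0.023 to -0.011 in the blue ones, which include both pairs of MAX vector replicate 2 with an empty vector array.

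Over both MAX vector arrays, 17 genes had the same sign against the empty vector mean, 11 higher and 6 lower, and 12 had opposite signs. The share of all genes with the same sign on both arrays was not computed, so these counts have no background. By role, both arrays were higher for 3 of 4 polymerase I genes, 4 of 5 small subunit factors and 3 of 12 large subunit factors. Both were lower for 2 of 3 box C/D proteins, 1 of 2 box H/ACA proteins and 2 of 12 large subunit factors. Of Ncl, Npm1 and Nolc1, 1 was higher on both and 1 lower on both. Under all 17 settings tried, the main one included, Polr1a, Polr1b, Polr1c, Pes1, Imp4, Noc4l, Utp4 and Ddx18 kept values above 0. Ncl, Nop56, Nop58, Dkc1 and Noc2l kept values below 0 under the same settings. The other 16 genes took both signs. Not all of these settings were separate checks of a sign. The replicate block, the intensity trend and both changes of the filter on dim probes left the fold changes of the 29 as they were. Slide as a block gave the same values as leaving out MAX vector replicate 1. Median scaling, the other percentiles and the authors' value table each moved all the fold changes by 1 small constant.

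Genes with an E-box in the promoter had fold changes on both sides of 0, as did those without. The 8 measured genes with CACGTG in the 300 bases had a median log2 fold change of 0.045, with 5 above 0 and 3 below. The 19 measured genes with a promoter but without these letters had a median of 0.023, with 14 above 0 and 5 below. In the other genes of ribosome production the order was the opposite, with a median of 0.018 for 12 genes with the letters and 0.066 for 30 without. Over all tested genes with a symbol and a promoter, the medians were 0.0007 for 473 genes with the letters and -0.0034 for 4676 without. Among the 6 genes printed, Pes1 was the highest at 0.23 and Dkc1 the lowest at -0.22. Polr1a, the highest of the 29, had no match in this window.

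**Figure D4:**
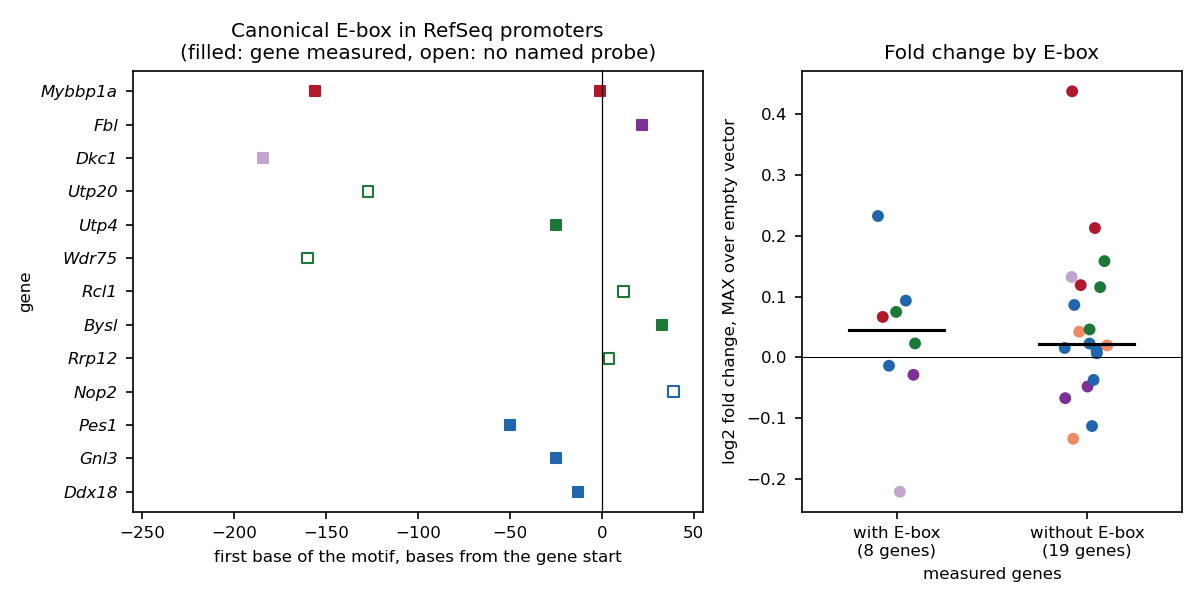
Left, position of the first base of each CACGTG match relative to the gene start in the 13 promoters that hold it (filled squares: measured genes, open squares: genes without a named probe); right, log2 fold change of measured genes with (8) and without (19) a match, bars being medians of 0.045 and 0.023, colours as for roles in the plot of fold changes. Matches lie from -184 in Dkc1 to 39 in Nop2, and the points on the right cover overlapping ranges.

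Other genes of ribosome production, from a list of 125, gave a like picture. Of the 50 with a value, 0 passed limma's adjusted threshold, where 0.84% of all genes did, and the median log2 fold change was 0.038. At an unadjusted limma p under 0.05, 1 was higher and 1 lower, where 7.93% and 8.21% of all genes were. Here too the direction followed MAX vector replicate 1, whose median difference from each empty vector array was 0.082 and 0.062. For MAX vector replicate 2 it was 0.0056 and -0.028. Of these 50 genes, 39 were higher on MAX vector replicate 1 than on replicate 2. The highest 3 were Nop53, a large subunit factor that also binds the exosome, at 0.36 ± 0.12 (limma adjusted p = 0.277), the helicase gene Ddx47 at 0.36 ± 0.13 (limma adjusted p = 0.325) and Ruvbl1, an ATPase of small nucleolar particle assembly, at 0.20 ± 0.09 (limma adjusted p = 0.37). The lowest 3 were Pno1, a small subunit factor, at -0.30 ± 0.09 (limma adjusted p = 0.244), the nucleolar protein gene Nol10 at -0.19 ± 0.09 (limma adjusted p = 0.408) and Brix1, of large subunit assembly, at -0.19 ± 0.12 (limma adjusted p = 0.517). Of 65 cytosolic ribosomal protein genes 0 passed the adjusted threshold and 1 was higher at an unadjusted p under 0.05, against the same shares of all genes. Their median was 0.075, and 54 lay above 0, against 11783 of all 25356 genes. Both MAX vector arrays lay above both empty vector arrays for 22 of the 65 and below both for 2, where all genes gave 24.2% and 26%. Myc itself measured -0.015 ± 0.145 (limma adjusted p = 0.97), and Mycn -0.48 ± 0.16 (limma adjusted p = 0.299).

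**Figure D5:**
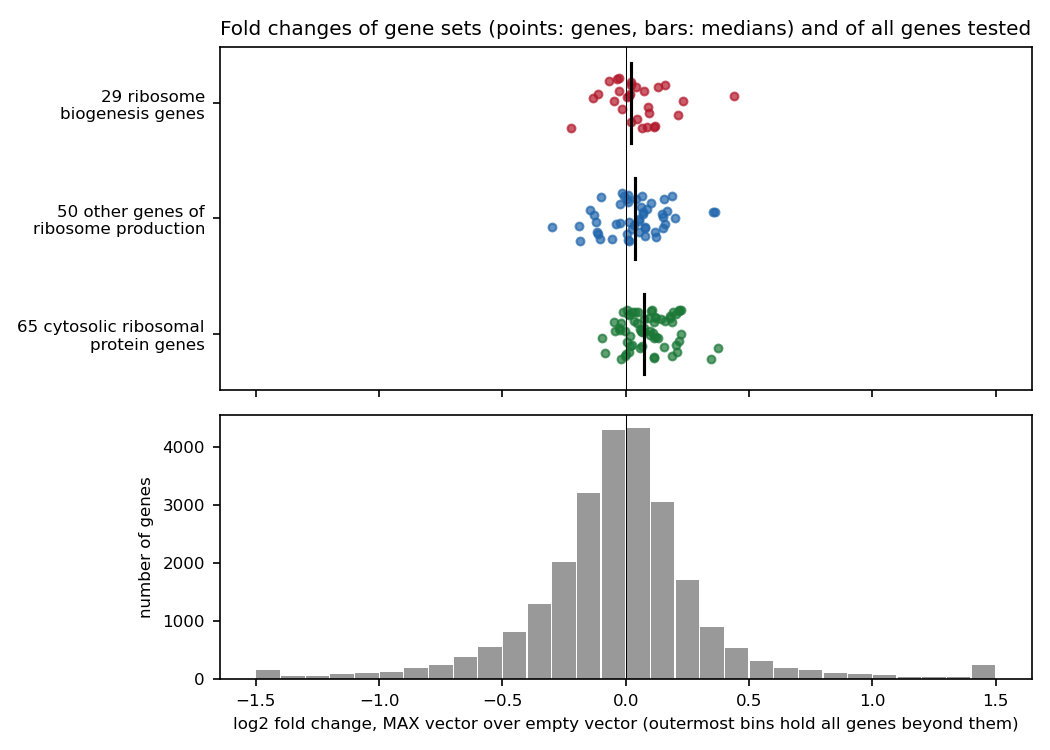
Log2 fold changes (MAX vector over empty vector) of the 29 ribosome biogenesis genes, 50 other genes of ribosome production and 65 cytosolic ribosomal protein genes (points, with medians as bars at 0.023, 0.038 and 0.075), above a histogram of all 25356 genes tested. The 3 sets lie in the middle of the histogram, and 0 of their genes passed the adjusted threshold, where 0.84% of all genes did.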

How the data were processed

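Total RNA was hybridised to 4 one-colour (Cy3) Agilent arrays. The deposited scanner files hold spot intensity, background-subtracted by Feature Extraction 10.7.3.1 per the file headers (10.7 in the submitters' processing notes), with annotation of build rn4. The authors' value table holds log2 values, whose differences between arrays matched the scanner values (r = 1); its column medians were -0.033, -0.011, -0.0054 and -0.0065, and the baseline of each probe is unknown.

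Spots with an outlier flag were left out, log2 processed signals were averaged per probe, and the 75th percentile of the array was taken off. Probes well above background on at least 2 arrays were kept, the brightest per gene, which gave 25356 genes. Groups were compared with limma 3.58.1 (R 4.3.3; lmFit, eBayes, Benjamini-Hochberg over all genes, threshold 0.05, 3.94 degrees of freedom). RefSeq accessions, versions removed, named 10768 of 41012 probes (26.3%) through the GRCr8 gene table; coordinates printed come from the RefSeq promoter table and not from the arrays. Normexp used median signals, since the files hold no mean signal column. The fit was also run on simulated data, with independent noise drawn from the fit's own model. The simulation held no effect of slide, passage or line, so it says nothing of these.

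The members and the lists of other genes and markers were chosen with earlier results of these data known. Every array's value is given for members with unadjusted p under 0.05, the highest and lowest of each role, Ncl, Npm1, Fbl and Polr1b. Polr1c, Pa2g4 and the markers given with a fold change were added after their values were seen. Of the other pathway genes the 3 highest and 3 lowest are named. Other backgrounds, scalings, filters, probe rules, blocks and left-out arrays were tried.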

Additional observations from a re-analysis of the deposited data

How the results depend on the processing

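The count of members past limma's adjusted threshold stayed at 0, as did that of the 50 other pathway genes, under all 16 alternatives. At an unadjusted p under 0.05 the 1 member became 2 with normexp, quantile normalization or the percentile over probes above background on all arrays (Polr1c joining Polr1a), 3 with an intensity trend (with Pes1), and 0 to 1 when an array was left out. The 213 calls over all genes became 799 with normexp, 541 with median scaling, 515 with probes above background on all arrays only, 955 with a trend, 8 with slide as a block, 0 without a filter on dim probes (36864 genes tested) and 0 to 144 with an array left out; the cause was not tested. Same-numbered arrays of the groups deviated with a correlation of -0.018 over all genes, so replicate numbers were not taken to pair them. Over the members the correlation was 0.58, and a part shared by same-numbered arrays was not tested in them. A fit with a replicate block called 0 genes and 0 members, and 1 member had an unadjusted p under 0.05. The members' median of 0.023 ran from -0.0027 (without MAX vector replicate 1) to 0.078 (without MAX vector replicate 2). Members with CACGTG numbered 13, or 8 in the upstream bases alone.

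Of 224 values of the 14 named members under alternatives, 11 changed sign, all near 0. The 224 include values that could not differ from the main ones, as with the replicate block and the intensity trend. Bysl was -0.033 with normexp, and Nolc1 -0.037 as the mean of its probes. With slide as a block, which equals leaving out MAX vector replicate 1, Bysl was -0.049, Gar1 -0.0016 and Mybbp1a -0.0027. With an array left out, Bysl ran from -0.049 to 0.095, Gar1 from -0.0016 to 0.27, Mybbp1a from -0.0027 to 0.14, Fbl from -0.12 to 0.059 (0.049 without empty vector replicate 1) and Npm1 from -0.022 to 0.062. The percentile over spots was chosen after seeing the data. Only 2 passages of each line limit the precision, and the signals of these genes stood well above background.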
